A study of Arabidopsis thaliana with 2 samples.

Results

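The transcripts described here are those of the plastid and mitochondrial genomes, taken as every non-control spot whose gene name on the array is a plastid (AtCg) or mitochondrial (AtMg) locus code. This gave 5 loci of the 25665 named on the array, 1 plastid and 4 mitochondrial, each with 1 probe. The plastid locus was AtCg01000, and the mitochondrial loci were AtMg00285, AtMg00300, AtMg00516 and AtMg00580. The plastid side of the data therefore rests on a single probe, and no statement about plastid transcripts in general can be made from it. For comparison, the RefSeq gene table of the TAIR10.1 assembly lists 85 plastid and 33 mitochondrial protein-coding genes.

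The measurements came from inflorescence stems of Arabidopsis thaliana sgr1 and of wild type, WT(Col), each array carrying both genotypes. In sgr1, short for shoot gravitropism 1, the SCARECROW gene (SCR), a regulator needed to form the endodermis, is mutated, and the labels name no allele. Stem segments of 1.5 cm, cut 0.3 to 1.8 cm below the apex of primary stems 5 to 8 cm tall, were freed of lateral organs and pooled from at least 10 plants. Seeds of both genotypes had 3 days at 4 °C, then 10 days on plates and later growth on soil, in constant light at 23 °C. On array 1 the sgr1 RNA carried Cy3 and the wild-type RNA Cy5, and array 2 had the opposite labelling. The labels speak of 2 biological replicates in 1 place and of replicate 1 of 1 in another. The spread between these arrays may thus be technical. The p-values rest mostly on the spread shared across all genes (47.7 prior against 1 residual degree of freedom). A small p therefore does not mean that the arrays had similar ratios at that locus.

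Plastids and mitochondria keep small genomes of bacterial origin that encode core parts of photosynthesis and respiration, together with parts of their own ribosomes. Most other proteins of these organelles are encoded in the nucleus, including those that transcribe, process and degrade organelle RNA. In the mitochondria of flowering plants the nad1 and nad2 messages, which encode membrane subunits of respiratory complex I, are assembled by trans-splicing of separately transcribed pieces. In plant organelles a poly(A) tail marks RNA for decay, and the labelling kit named in the labels primes from poly(A) tails. What share of an organelle gene's RNA was labelled was not tested.

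Depending on the channel, 59.2% to 66.5% of the spots other than controls passed the scanner software's test for signal well above background, and 0 spots were saturated. The test covered 19059 genes, of which 18.9% passed at an adjusted p under 0.05 (limma, Benjamini-Hochberg over all genes), 9.92% higher and 8.98% lower in sgr1. SCR itself fell in sgr1: its log2 ratio was -0.81 on array 1 and -1.16 on array 2 (limma, adjusted p = 3.295e-07), and where its probe lies relative to the mutation is unknown here. The stem genes CESA4, CESA7, CESA8, REV and CER6 were measured on both arrays. Of the floral organ markers SEP3 was measured, AP3 and AG were well above background in 0 of 4 channels and PI in 1 of 4. Of the root markers RCI3 (well above background in 4 of 4 channels) and COBL9 (2 of 4) were measured, and PYK10 was well above background in 0 of 4. RNA came from whole stem segments, so fewer cells of a type and less RNA per cell cannot be told apart.

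None of the organelle loci passed the test. Of the 5, 4 had a channel well above background on each array and entered it, and 0 of these 4 were called, against 18.9% of all genes tested. At an unadjusted p under 0.05 the count was 1 of 4, against 30.2% of all genes. No organelle locus was at least 2-fold apart in the same direction on both arrays, against 1.53% of all genes. The mean log2 ratios of sgr1 over wild type lay between -0.20 and 0.32, and each was smaller in size than the smallest change called in any gene, 0.38 on the log2 scale. As the test rests mostly on a spread shared across genes, this largely restates that they were not called. A count of 0 among 4 loci says little about these genomes as a whole.

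Before normalization the order of the values followed the dye in the 4 organelle loci that were tested. Their unnormalized spot intensity in Cy5 was above that in Cy3 on both arrays, by 1.74-fold to 5.64-fold. Accordingly sgr1 was the dimmer genotype on array 1 and the brighter one on array 2 in all 4. The fifth, AtMg00300, was close to background and is described last. A lean to Cy5 was not particular to the organelle loci. With median centring in place of loess, the median log2 ratio of sgr1 over wild type of all genes was -0.80 on array 1 and 0.81 on array 2. Median centring has already subtracted the median over the spots of each array. These values are therefore relative to that median and are not the same measure as the unnormalized folds above. Loess normalization within each array removes the part of the lean to Cy5 that depends on brightness. The ratios given below are those after it.

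**Figure D1:**
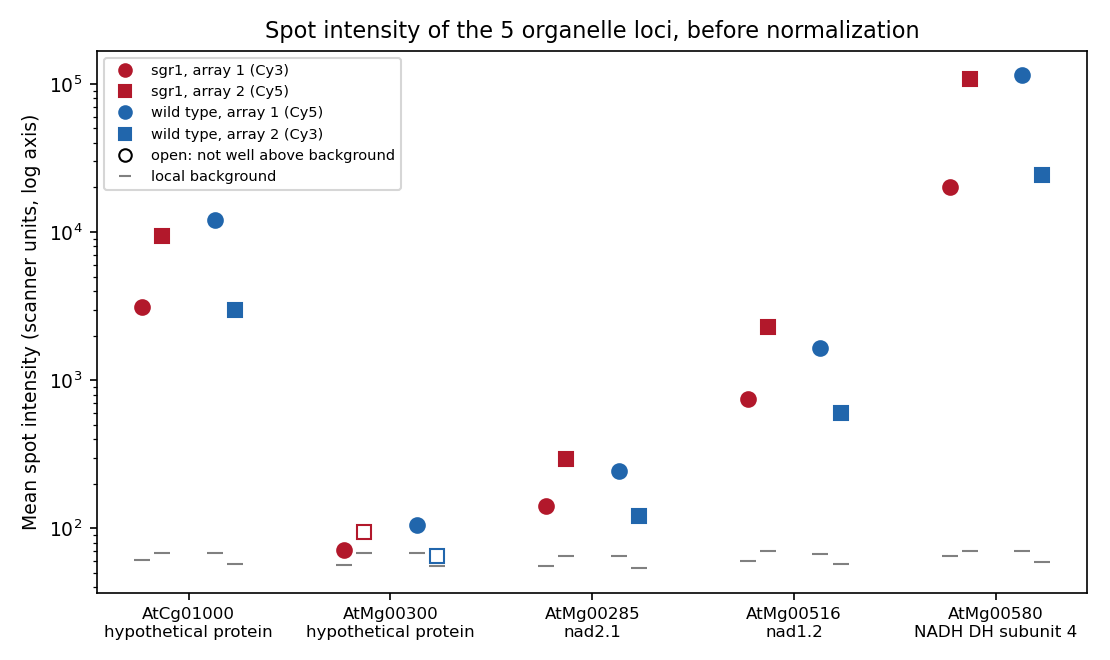
Mean spot intensity (scanner units, log axis) of the 5 organelle loci in sgr1 (red, left of each pair) and wild type (blue, right), with array 1 as circles and array 2 as squares, before normalization. Grey dashes are the local background and open symbols were not well above background. In the 4 loci with filled symbols only, the Cy5 symbol (sgr1 on array 2, wild type on array 1) lies above the Cy3 symbol of the same array.

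Of the mitochondrial loci, AtMg00516 had the largest mean ratio. The array describes it as nad1.2, a piece of the gene for complex I subunit 1. Its intensity in sgr1 was 753 on array 1 and 2280 on array 2, against 1660 on array 1 and 602 on array 2 in wild type. After normalization the log2 ratio of sgr1 over wild type was 0.61 on array 1 and 0.02 on array 2. Nearly all of the difference thus lay on array 1. The mean was 0.32 ± 0.417 (SD, n = 2), a 1.25-fold higher level in sgr1. It did not pass the test (limma, adjusted p = 0.1224, unadjusted p = 0.03263). The 95% interval of limma, which borrows the spread of all genes, was 0.03 to 0.61 on the log2 scale.

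AtMg00285, described as nad2.1, a piece of the gene for complex I subunit 2, was dimmer. In sgr1 its intensity was 141 on array 1 and 296 on array 2, against 245 on array 1 and 122 on array 2 in wild type, over local backgrounds of 54 to 65. The normalized log2 ratio was 0.40 on array 1 and -0.04 on array 2, so that the arrays had opposite signs. The mean of 0.18 ± 0.31 (SD, n = 2) did not pass (limma, adjusted p = 0.4356), with an interval of -0.11 to 0.47. With an intensity 2.26 to 4.55 times its local background, its ratio is drawn towards 0 by the offset of the background correction.

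AtMg00580 is annotated on the array as NADH dehydrogenase subunit 4, a subunit of the proton-pumping membrane arm of complex I. Its intensity in sgr1 was 20200 on array 1 and 107000 on array 2, against 114000 on array 1 and 24300 on array 2 in wild type. No channel was saturated, and the lowest of these values was 311 times its local background. The log2 ratio of sgr1 over wild type was -0.34 on array 1 and -0.06 on array 2, lower in sgr1 on both. The mean of -0.20 ± 0.202 (SD, n = 2) did not pass the test (limma, adjusted p = 0.3622). Its interval of -0.48 to 0.08 on the log2 scale holds ratios of sgr1 over wild type from 0.716 to 1.06.

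The plastid locus AtCg01000 carries the description hypothetical protein. Its intensity was 3140 on array 1 and 9410 on array 2 in sgr1, against 12000 on array 1 and 2990 on array 2 in wild type. Its log2 ratio was -0.02 on array 1 and -0.36 on array 2, so here array 2 carried the difference. The mean was -0.19 ± 0.239 (SD, n = 2), which did not pass (limma, adjusted p = 0.4021). The interval of -0.47 to 0.09 corresponds to ratios of 0.721 to 1.07.

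AtMg00300, also described as a hypothetical protein, gave too little signal to be tested. In sgr1 its intensity was 72 on array 1 and 94.1 on array 2, against 105 on array 1 and 64.7 on array 2 in wild type, where the local background lay between 55.5 and 68.5. Both genotypes were well above background on array 1 and neither was on array 2. The log2 ratio on array 1 was 0.09, and no level can be given for array 2.

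**Figure D2:**
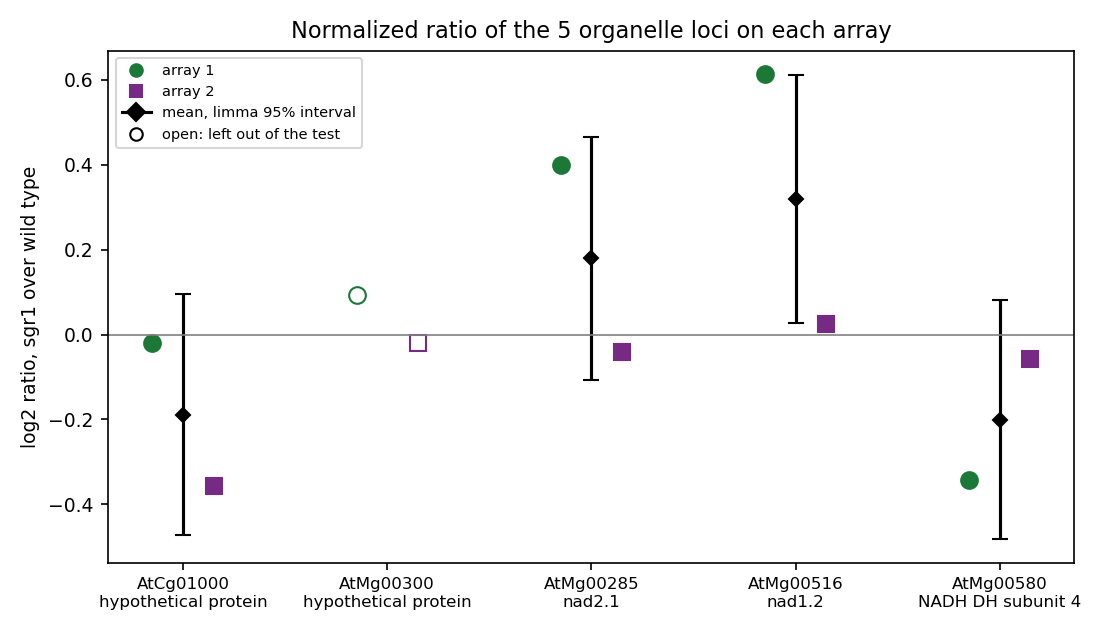
Normalized log2 ratio of sgr1 over wild type for the 5 organelle loci on array 1 (green circles) and array 2 (purple squares), with the mean and its limma 95% interval (black). Open symbols mark AtMg00300, which was left out of the test. The intervals of AtCg01000, AtMg00285 and AtMg00580 include 0, and that of AtMg00516 starts at 0.03.

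The gap between the arrays was larger in size than the mean log2 ratio in all 4 tested organelle loci. A gap spans the full difference of the arrays, so it is not on the scale of their mean. The gap from array 1 to array 2 was -0.59 for AtMg00516, -0.44 for AtMg00285, -0.34 for AtCg01000 and 0.29 for AtMg00580 on the log2 scale. The median size of this gap over all genes tested was 0.19. The SD of the arrays exceeded the spread shared across genes, 0.198, in each of the 4. Read as Cy5 over Cy3 instead, the mean of the arrays holds any part that follows the dye and any other difference between the arrays. With 1 array for each dye orientation these cannot be told apart. This mean was -0.29 for AtMg00516, -0.22 for AtMg00285 and -0.17 for AtCg01000, and 0.14 for AtMg00580. Its size was below that of the mean sgr1 over wild type ratio in AtMg00516 (0.32), AtCg01000 (-0.19) and AtMg00580 (-0.20). In AtMg00285 its size was above that of this ratio (0.18). The exchange of dyes cancels a dye part in the mean ratio of sgr1 over wild type. Such a part stays in the ratio of each single array. With 2 arrays a sign-flip permutation test of any single locus cannot go below p = 0.5.

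Part of the mitochondrial genome is also represented on the array under nuclear names. Chromosome 2 of the Columbia strain carries a long insertion of mitochondrial DNA, and loci in this stretch have near-identical copies in the mitochondrion. Among the AT2G07 loci that span it (AT2G076, AT2G077 and AT2G078 codes), 18 are described on the array as subunits of respiratory complexes, ATP synthase, cytochrome c biogenesis, mitochondrial ribosomes or, for AT2G07707, a plant mitochondrial protein. Which copy such a probe measured is uncertain, as no probe sequence was used here, and the same uncertainty holds for the AtMg probes. This list was taken from the descriptions, after values of these data were known, and is given by counts with no test of the list.

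All 18 were measured. Of these, 2 were called higher in sgr1, where 9.92% of all genes were, and 0 were called lower. AT2G07725, mitochondrial ribosomal protein L5, had a log2 ratio of 0.86 on array 1 but 0.04 on array 2 (mean 0.45 ± 0.579 SD, n = 2, limma adjusted p = 0.02635). AT2G07695, cytochrome c oxidase subunit II, had 0.89 on array 1 and 0.01 on array 2 (mean 0.45 ± 0.624 SD, n = 2, limma adjusted p = 0.02921). Both calls thus rested on array 1, since array 2 alone showed almost no difference. They were lost with median centring, with the scanner software's log ratios and without the filter on dim probes, while the mean ratio stayed between 0.43 and 0.45 for AT2G07695 and between 0.44 and 0.45 for AT2G07725.

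A higher ratio on array 1 ran through the mitochondrial products and through the rest of the stretch. Their median log2 ratio was 0.38 on array 1 and 0.01 on array 2, and the ratio was higher on array 1 than on array 2 in 16 of 18. Over all genes tested this held for 40.4%, and the medians were -0.03 on array 1 and 0.04 on array 2. Median centring put the median of all genes at -0.80 on array 1 and 0.81 on array 2, and relative to these medians the ratio was higher on array 1 in 12 of 18 products. In the software's log ratios it was higher on array 1 in 17 of 18. Among the AtMg loci the ratio was likewise higher on array 1 for AtMg00516 and AtMg00285 and not for AtMg00580. The other 32 measured loci of the stretch had medians of 0.02 on array 1 and -0.13 on array 2, and 24 of the 32 were higher on array 1. In the software's log ratios this held for 25 of the 32. With median centring, relative to the medians of all genes, it held for 29 of the 32 and for 2 of the 4 tested organelle loci. Within the stretch, the order of the arrays was thus not particular to the loci described as mitochondrial products. The median size of the gap was smaller in the other loci, 0.13 against 0.32 in the products. As these loci come from the same stretch, they cannot show whether the order extends beyond mitochondrial sequence. The part of the dyes in it was not tested.

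Other products had similar ratios on both arrays, some above 0 and some near it. AT2G07687, cytochrome c oxidase subunit 3, had 0.36 on array 1 and 0.27 on array 2. AT2G07696, of the ribosomal protein S7 family, had 0.30 and 0.44, and AT2G07707, with a plant mitochondrial YMF19 profile, had 0.44 and 0.31, in the same order. None of these 3 passed the test (limma, adjusted p = 0.1115 for AT2G07687, 0.05376 for AT2G07696 and 0.05192 for AT2G07707), and they were chosen here after their values were seen. AT2G07741, ATPase subunit 6, had 0.17 on array 1 and 0.03 on array 2. AT2G07681, a cytochrome c biogenesis protein, had -0.11 on array 1 and -0.03 on array 2. It was dim, at intensities of 96.8 to 215, so the offset of the background correction draws its ratio towards 0. In the software's log ratios AT2G07681 had -0.20 on array 1 and -0.32 on array 2. With median centring it had 0.60 and -0.81 relative to the medians of all genes, so its similarity depended on the processing.

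Products related to the organelle loci can be set beside them. AT2G07689, described as a complex I NADH-ubiquinone oxidoreductase, had 0.53 on array 1 and -0.28 on array 2. AT2G07751, chain 3 of the same complex, had 0.43 on array 1 and 0.11 on array 2. AT2G07785, which the array likens to chain 1, had 0.04 on array 1 and 0.02 on array 2. It was dim, at intensities of 79.3 to 139, so the offset draws its ratio towards 0. In the software's log ratios it had -0.06 on array 1 and -0.53 on array 2. The brighter nad1.2 probe of AtMg00516 had 0.61 on array 1 and 0.02 on array 2. On array 1 the probes for complex I products ranged from -0.34 (AtMg00580) to 0.61 (AtMg00516). AT2G07689 had opposite signs on the arrays. Cytochrome b was represented by AT2G07727 (0.46 on array 1 and -0.12 on array 2) and AT2G07718 (0.12 on array 1 and -0.26 on array 2).

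**Figure D3:**
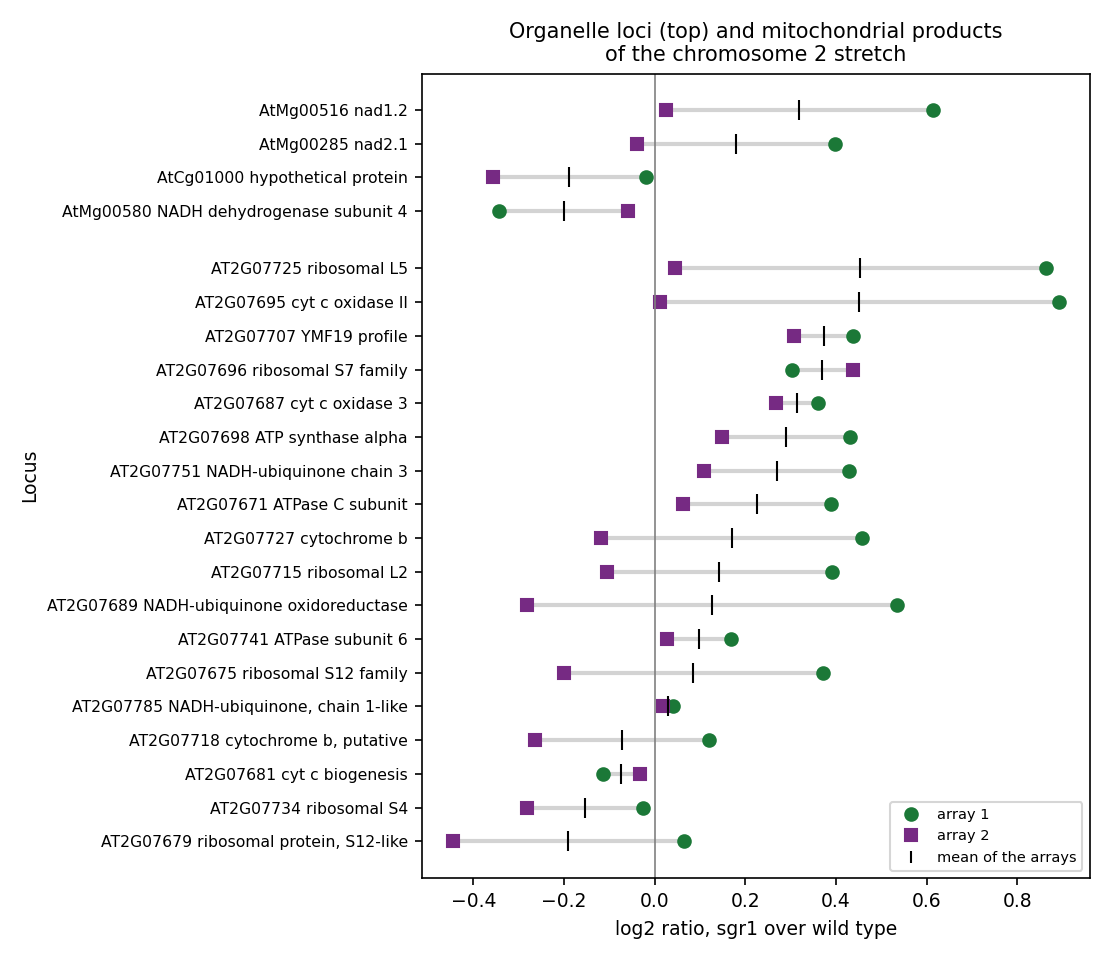
Log2 ratio of sgr1 over wild type on array 1 (green circles) and array 2 (purple squares) for the 4 tested organelle loci (top) and the 18 mitochondrial products of the chromosome 2 stretch (below), each set ordered by the mean (black tick). The array 1 symbol lies to the right in 16 of the 18 products and in 3 of the 4 organelle loci.

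The nuclear genes that serve the organelle genomes were taken as lists by function, each to be read against the 9.92% of all genes called higher and the 8.98% called lower. Of 9 sigma factors and phage-type RNA polymerases, which transcribe organelle genes, 2 were higher in sgr1 and 0 lower (median 0.15). These were SIG5, the light- and stress-responsive sigma factor of the plastid polymerase (0.78 ± 0.114, SD, n = 2), and SIG4, which acts on a plastid ndh gene (0.65 ± 0.00474, SD, n = 2). None of the 12 proteins bound to the plastid polymerase passed (limma), where 18.9% of all genes did, at a median of -0.16. An unadjusted p under 0.05 was found for 2 of the 12, a smaller share than the 30.2% of all genes. Of 6 measured genes for organelle RNA decay and processing 2 rose, the plastid RNA-binding endonucleases CSP41A (0.79 ± 0.00248, SD, n = 2) and CSP41B (0.63 ± 0.159, SD, n = 2). In the same list the mitochondrial polynucleotide phosphorylase, which degrades RNA, fell (mtPNPase, -0.63 ± 0.143, SD, n = 2). RHON1, also of this list, was left out because the software marked its spot as an outlier. Of 7 measured genes for organelle DNA maintenance 1 fell, the DNA polymerase POLIB (-0.47 ± 0.386, SD, n = 2), mainly on array 2, and of 9 plastid division genes ARC5 (0.58) and FTSZ2-2 (0.40) rose.

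Nuclear partners of the organelle-encoded complexes were counted for each organelle. Of 24 genes of the mitochondrial respiratory chain, the ATP synthase and the alternative oxidase, 1 rose and 1 fell (median -0.06), where 9.92% of all genes rose and 8.98% fell. The rise was that of AOX1A, the alternative oxidase, whose transcript is a standard marker of disturbed mitochondrial respiration, with 1.04 on array 1 and 1.74 on array 2 (2.62-fold higher, limma adjusted p = 1.524e-10). The fall was that of COX6B-3, a subunit of cytochrome c oxidase (-0.47 ± 0.0381, SD, n = 2). Of 27 nuclear partners of plastid complexes 11 rose and 0 fell, against the same shares of all genes, with a median of 0.07 on array 1 and 0.71 on array 2. The arrays differed strongly in this list, with a median gap of 0.73, against 0.19 over all genes. Only 14 of the 27 had the same sign on both arrays. The ratio was higher on array 2 in 25 of the 27. The largest rises were those of the Rubisco small subunits RBCS2B (1.23 ± 0.558, SD, n = 2) and RBCS3B (0.76 ± 0.35, SD, n = 2) and of the photoprotective PSBS (0.66 ± 0.829, SD, n = 2), whose difference lay almost wholly on array 2. The lone plastid locus, AtCg01000, had -0.02 on array 1 and -0.36 on array 2.

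**Figure D4:**
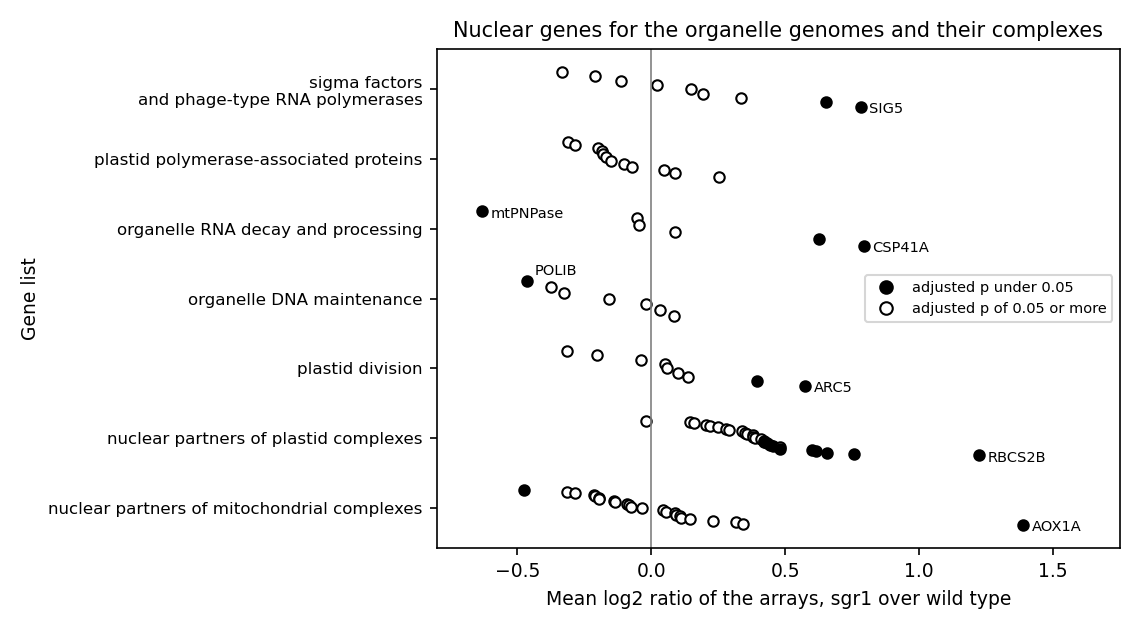
Mean log2 ratio of the arrays, sgr1 over wild type, for each measured nuclear gene of 7 lists. Filled points passed the test (adjusted p under 0.05) and open points did not. AOX1A and RBCS2B, a small subunit of Rubisco, lie farthest to the right, and mtPNPase farthest to the left.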

How the data were processed

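Organelle transcripts were measured on 2 two-colour arrays of 1 slide, scanned together. With 1 array for each dye orientation, a batch of plants, RNA or labelling could not be told apart from array or dye. Mean and local background intensities were read from the deposited scanner files, made with Agilent Feature Extraction 9.1.3.1 per the file headers. The deposited log10 ratio of Cy5 over Cy3, background-subtracted and dye-normalized by that software per the file headers, served as an alternative, and the deposited value table held the same numbers. Depth has no meaning for arrays, whose number limits the precision.

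Intensities were corrected with normexp (offset 50) and loess within arrays (limma 3.58.1, R 4.3.3), with control and outlier spots at weight 0. The sign of array 1 was turned, giving sgr1 over wild type throughout. Spots marked as outliers on either array were left out, spots were kept with at least 1 of the channels of every array well above background, and kept spots were averaged per locus. Ratios were tested against 0 with lmFit and eBayes (1 residual and 47.7 prior degrees of freedom). On simulated data for this comparison, over 19059 genes, 28.4% of 67 genes changed 1.5-fold, 91% of 67 changed 2-fold and 97% of 66 changed 4-fold were called. No other genes were changed in the simulation, and all spots had the same spread. It gave 146 calls, against 3602 in the data, so the adjusted threshold was stricter there. These shares are therefore not the power of the test on the data. The flags of the deposited files (well above background, outlier) were used as given.

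All 5 organelle loci were named; the rule for choosing among larger functional groups and operons had nothing to act on. Of the nuclear lists, called members were named, up to 3 per list by size of change. The members and lists were chosen with earlier results of these data known. The organelle loci had no match by locus code in the RefSeq table, so the descriptions of the array were kept. No source used here names the probes' genome build, and no coordinates were used.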

Additional observations from a re-analysis of the deposited data

How the results depend on the processing

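The 4 tested organelle loci kept the direction of their mean in the 5 alternatives that change their ratio, and were called in 0 of these. The other 5 (Aquantile, the median over spots, trend and robust eBayes and both other filters) left the ratios as they were and also gave 0 calls. AtMg00516 ranged from 0.32 to 0.36 on the log2 scale, with adjusted p from 0.09446 (trend and robust eBayes) to 0.9999 (median centring). AtMg00285 ranged from 0.17 to 0.29, AtMg00580 from -0.25 to -0.18 and AtCg01000 from -0.23 to -0.18. The count of called plastid and of called mitochondrial loci stayed at 0 with each, and with the rule of 2-fold on both arrays. Leaving out 1 array moved the plastid value between -0.36 and -0.02 and the median of the 3 mitochondrial loci between -0.04 and 0.40, with no test, so that the sign of the mitochondrial median differed between the arrays. Over all genes 3602 calls became 2 with median centring and 1952 with the software's deposited ratios, at 1 higher and 1 lower and at 999 higher and 953 lower. With median centring the median of all genes was -0.80 on array 1 and 0.81 on array 2. The AT2G07695 and AT2G07725 calls had adjusted p = 0.2832 and 0.2567 with the software's ratios and 0.119 and 0.1019 without the filter on dim probes, and AT2G07696 (0.04375) and AT2G07707 (0.04408) passed with trend and robust eBayes. The alternative without near-identical copies was not run, as copies could not be found without sequences, and a single array gives no dye part. The pairing of the genotypes on each array is already part of the tested ratio, and all arrays form 1 group, so no further paired analysis was run.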

Other observations

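Mitochondrial ribosomal protein L2, a core protein of the large ribosomal subunit, was also named by a group of 4 spots that carry a transcript cluster and no locus code, and so entered no comparison above. Their log2 ratios of sgr1 over wild type were 0.62, 0.52, 0.24 and 0.15 on array 1, and -0.14, -0.24, -0.11 and 0.24 on array 2, in the same spot order. The ratio was higher on array 1 in 3 of the 4. The chromosome 2 locus of the same description, AT2G07715, had 0.39 on array 1 and -0.11 on array 2. These spots were chosen after their values were seen, and whether they share a target was not tested.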
